A study of Mus musculus with 441 samples.

Results

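Bivalent promoters outside the Hox clusters were described in mouse embryonic stem cells (mESCs). They were taken from a deposited table of ChIP-seq reads in 1 window of 1000 bases for each of 23167 gene names. A window was a member when the serum library of H3K4me3 held at least 200 reads and the serum library of H3K27me3 at least 80, with Hox cluster genes left out. The rule gave 1613 windows, 6.96% of all, and 10 Hox windows past both thresholds were not used. Of the other windows, 755 passed the H3K27me3 threshold alone, 10600 the H3K4me3 threshold alone and 10189 neither. Nrg3, Abcb1a and Mir9-1 lay just outside at 199 H3K4me3 reads, and Cacna1c, Chdh and Htr6 just inside at 200. At the other threshold, Acsl6, AI118078 and 4933421O10Rik held 79 H3K27me3 reads and stayed out, while Adamts17, A330050F15Rik and 6430548M08Rik held 80 and were members. The serum reads of both marks therefore chose the members, and serum values of these marks are a description.

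Neural precursor cells (NPCs) were derived in culture from the v6.5 mESC line and were nestin-positive per the design text. The Dgcr8 knockout line (Dgcr8KO) carries Dgcr8 -/- in a v6.5 background and was grown in serum+LIF; Dgcr8 partners Drosha in the processing of microRNAs. The 2i cells are v6.5 mESCs in 2i+LIF, 2i being the inhibitors of the kinases MEK and GSK3 that hold mESCs in a naive state, and the serum cells are v6.5 mESCs in serum+LIF. RNA was measured in single cells captured on microfluidic chips, namely 54 NPCs, 84 Dgcr8KO cells, 94 2i cells and 183 serum cells on 2 plates of 90 and 93. It was also measured in bulk in 2 Dgcr8KO, 1 2i and 2 serum libraries. ChIP-seq of H3K4me3, H3K27me3, H3K27ac, RNA polymerase II, H3K36me3 and H3K9me3, with whole cell extract as input, was done once each in Dgcr8KO, 2i and serum cells. Differences between ChIP libraries therefore have no replicate check, and intervals on them cover counting error only.

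A bivalent promoter carries both H3K4me3, the mark of active and poised starts of transcription laid down by the Set1 and MLL complexes, and H3K27me3, the mark laid down by Polycomb repressive complex 2 (PRC2). In mESCs such promoters lie mostly in CpG-rich DNA and belong to regulators of development that are little transcribed. On differentiation, a promoter of this kind commonly keeps one of the marks and loses the other. Acetylation of the same lysine, H3K27ac, and H3K27me3 cannot sit on one histone tail together.

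The CpG content is the sequence property for which bivalent promoters are known, so promoters of members that the results return to are shown. The sequences run from 250 bases before to 50 bases after the start and are from RefSeq, build GRCm38.p6, 5′ to 3′ on the strand of the gene. Capitals mark each CG. The table's own windows are in mm9 and were matched to these promoters by symbol. Foxl2 (chr9:98955357-98955656, plus strand), Cdx2 (chr5:147307200-147307499, minus strand) and Sox1 (chr8:12395269-12395568, plus strand) encode transcription factors of the ovary, the trophoblast and the early neural plate. Gsc (chr12:104473187-104473486, minus strand), a homeobox factor of the organizer, and Tmem63a (chr1:180942268-180942567, plus strand), a mechanosensitive channel, differed most in H3K27me3 between Dgcr8KO and 2i cells in either direction, together with Kit. Nes (chr3:87970843-87971142, plus strand) encodes nestin, for which the NPCs were positive.
Foxl2: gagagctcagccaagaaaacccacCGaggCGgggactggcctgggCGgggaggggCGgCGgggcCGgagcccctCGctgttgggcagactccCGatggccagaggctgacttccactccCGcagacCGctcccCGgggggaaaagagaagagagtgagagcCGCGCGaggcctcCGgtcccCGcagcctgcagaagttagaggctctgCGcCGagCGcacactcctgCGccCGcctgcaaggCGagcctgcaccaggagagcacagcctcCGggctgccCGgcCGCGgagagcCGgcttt
Cdx2: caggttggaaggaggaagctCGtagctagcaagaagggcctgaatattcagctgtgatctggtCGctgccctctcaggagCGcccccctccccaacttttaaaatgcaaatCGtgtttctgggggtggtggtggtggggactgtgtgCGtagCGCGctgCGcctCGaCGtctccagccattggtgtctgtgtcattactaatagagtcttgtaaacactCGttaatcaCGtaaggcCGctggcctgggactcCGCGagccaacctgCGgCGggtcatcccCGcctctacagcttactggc
Sox1: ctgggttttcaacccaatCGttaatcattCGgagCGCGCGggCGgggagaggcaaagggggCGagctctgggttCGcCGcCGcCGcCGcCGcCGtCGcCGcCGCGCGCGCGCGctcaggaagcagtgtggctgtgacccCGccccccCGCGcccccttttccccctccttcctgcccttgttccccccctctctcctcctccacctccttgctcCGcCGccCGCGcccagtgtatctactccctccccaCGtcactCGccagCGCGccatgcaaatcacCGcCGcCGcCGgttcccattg
Gsc: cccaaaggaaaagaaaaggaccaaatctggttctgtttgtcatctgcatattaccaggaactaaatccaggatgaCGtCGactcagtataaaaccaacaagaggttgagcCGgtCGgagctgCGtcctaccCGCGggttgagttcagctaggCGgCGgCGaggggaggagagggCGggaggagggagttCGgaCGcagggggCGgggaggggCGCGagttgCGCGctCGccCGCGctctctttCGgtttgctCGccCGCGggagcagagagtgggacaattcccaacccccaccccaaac
Tmem63a: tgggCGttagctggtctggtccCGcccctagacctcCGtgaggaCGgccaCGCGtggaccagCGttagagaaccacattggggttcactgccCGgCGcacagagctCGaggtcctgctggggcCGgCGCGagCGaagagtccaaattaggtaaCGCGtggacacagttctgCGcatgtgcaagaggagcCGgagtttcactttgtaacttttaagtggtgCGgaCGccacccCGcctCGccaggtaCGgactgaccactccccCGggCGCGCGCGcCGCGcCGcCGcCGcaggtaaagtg
Nes: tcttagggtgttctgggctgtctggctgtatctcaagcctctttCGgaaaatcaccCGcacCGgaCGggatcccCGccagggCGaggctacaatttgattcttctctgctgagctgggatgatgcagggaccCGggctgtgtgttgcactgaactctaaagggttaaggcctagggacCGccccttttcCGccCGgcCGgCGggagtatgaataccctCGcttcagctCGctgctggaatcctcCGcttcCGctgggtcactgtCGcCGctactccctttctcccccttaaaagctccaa
These 6 promoters held 27 CG in Foxl2, 18 in Cdx2, 37 in Sox1, 25 in Gsc, 33 in Tmem63a and 18 in Nes. Of the 1613 members, 1065 were matched to a RefSeq promoter, with a median of 24 CG and a median GC content of 66.3%. The median was 13 CG in the 478 matched windows past the H3K27me3 threshold alone, 23 CG in the 7512 past the H3K4me3 threshold alone and 7 CG over all 27025 promoters of the RefSeq table. A promoter with at least 50% GC and an observed over expected CpG ratio of at least 0.6 was found for 73.6% of the matched members, against 34.1% of all promoters in the table. The share was 78.7% in matched windows past the H3K4me3 threshold alone, 38.7% past the H3K27me3 threshold alone and 46.8% over all matched windows. Such promoters were thus not particular to the members. Among the members themselves the CG count did not follow the level of H3K27me3: its median was 24, 23, 24 and 25 in 4 equal groups of rising serum H3K27me3. The counts describe this 300-base stretch and draw nothing about what binds it.

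Neighbouring genes on opposite strands showed that a window is centred on the start of its gene, to a median of 1 base over 1526 such pairs. The window of 102 members overlapped that of another member, and 1611 of the 1613 had distinct read counts. H3K27me3 windows summed to 577359 reads in Dgcr8KO, 516249 in 2i and 815042 in serum, and H3K4me3 windows to 5686479, 9687863 and 15315269 reads in the same order. Levels below are reads per window as deposited, and ratios between cultures are of CPM, which are reads scaled to the window total of the library. Input reads on chromosome 8 were 1.59, 1.52 and 1.47 times those of the other autosomes in Dgcr8KO, 2i and serum. Chromosome 8 held 107 members among 1092 windows (9.80%), against 7.10% on the other autosomes. The part of this excess in the membership of single genes on chromosome 8 was not tested; with thresholds raised by the serum ratio, 57 of them stayed (5.22%). Input was also high, over 3 times the median window in at least 1 culture, at 23 members, among them Mir101c, Sfi1, Ndrg1 and Snord37. Dgcr8 itself was listed at 4.03 and 2.20 TPM in bulk Dgcr8KO, 4.66 TPM in 2i and 10.6 and 10.3 TPM in serum, so it was lowest, but not at 0, in the knockout; which part of the gene is deleted was not analysed here.

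The cells carried the markers of their labels in part. Among 8 pluripotency markers, the median cell held 8 at 10 TPM or more in Dgcr8KO and in 2i and 6 on either serum plate. In NPCs the neural precursor markers Vim, Pax6, Sox2, Nes, Sox1 and Hes5 reached that level in 100%, 75.9%, 48.1%, 46.3%, 16.7% and 11.1% of cells, while Olig2 and Msi1 stood at 1.9%. Slc1a3, of the same list, was in fewer NPCs than mESCs, with 7.4% of NPCs, 29.8% of Dgcr8KO, 21.3% of 2i and 35.6% and 16.1% of serum cells, and the list's Fabp7 has no value in the NPC table. All 10 fibroblast and feeder markers reached it in at least 1 NPC, from 98.1% for Fn1, which every mESC held too, and 68.5% for S100a4 and 59.3% for Col3a1 to 9.3% for Col1a1 and 1.9% for Col1a2 and Lum. In mESCs 7 of these 10 were at 0. Against their label, 4 of the 54 NPCs held 7 or 8 of the 8 pluripotency markers, and no other NPC held more than 4. Results on NPCs are given with and without these 4 cells.

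**Figure D1:**
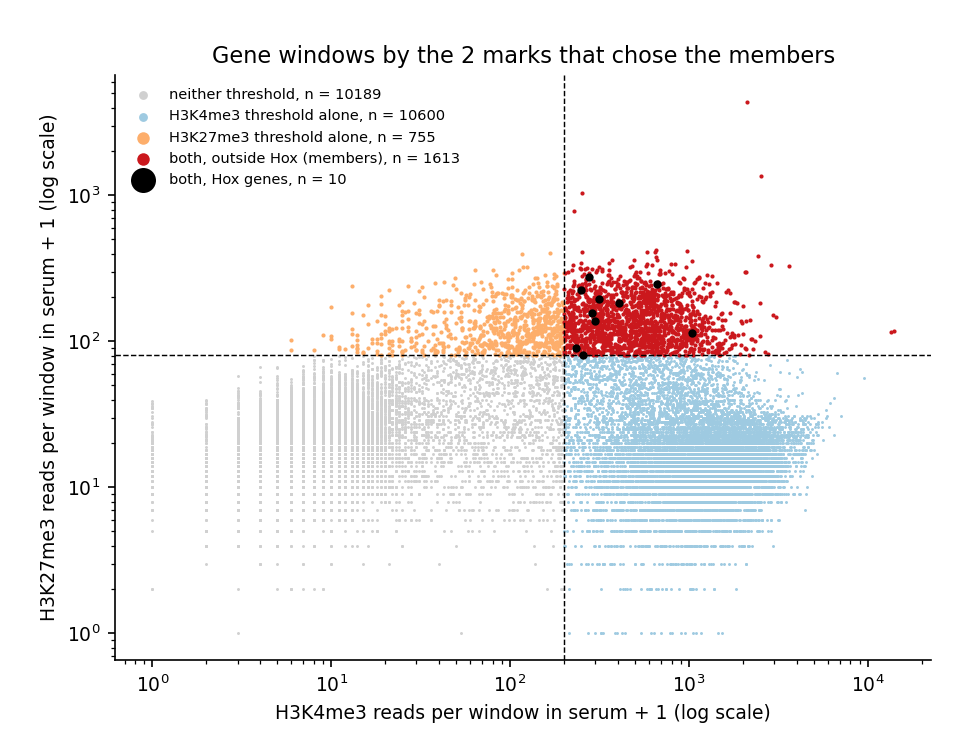
Reads per gene window in the serum libraries of H3K4me3 (horizontal) and H3K27me3 (vertical), both plus 1 on log scales. Points are windows, dashed lines are the thresholds of 200 and 80 reads, and the 1613 members fill the upper right corner together with 10 Hox windows.

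The members were rich in regulators of development by lists written from general knowledge. Of 108 windows of neural transcription factors, 59 (54.6%) were members, as were 34 of 75 for mesoderm (45.3%), 8 of 19 for endoderm (42.1%) and 7 of 14 for trophoblast (50%). Ligands and their antagonists gave 50 of 113 (44.2%) and signalling receptors 29 of 92 (31.5%). Guidance and adhesion proteins gave 39 of 181 (21.5%), channels and transmitter receptors 66 of 290 (22.8%) and inhibitors of the cell cycle 2 of 15 (13.3%), beside 6.96% of all windows. These shares are counts without a test. Windows past the H3K27me3 threshold alone, 755 of the 23167, held 37 of the 108 neural and 23 of the 75 mesoderm windows. They also held 5 of the 19 endoderm, 3 of the 14 trophoblast, 16 of the 113 ligand and 5 of the 92 receptor windows. Being rich in neural and mesoderm regulators was thus not particular to the members. None of the 13 windows of H3K4 methylation factors was a member, and 1 of 12 PRC2 and 1 of 20 PRC1 subunit windows was.

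The windows that follow are among those with the most serum H3K27me3 in their role, or belong to lineage regulators named whatever their values. Sim2, a bHLH-PAS factor, held 152 reads in Dgcr8KO, 135 in 2i and 345 in serum. Foxl2 held 128, 106 and 326 reads in the same cultures. Neurog1, which specifies sensory neurons, held 102 in Dgcr8KO, 89 in 2i and 316 in serum. All 3 windows were thus highest in serum and close to each other in Dgcr8KO and 2i. The ligand genes Gdnf, a survival factor for neurons, and Ihh, a hedgehog, held 111 and 126 reads in Dgcr8KO, 101 and 114 in 2i and 324 and 316 in serum. Igf2, an imprinted growth factor, held 105 in Dgcr8KO, 82 in 2i and 281 in serum. Among receptors, Flt1, a receptor of VEGF, held 144 in Dgcr8KO, 90 in 2i and 267 in serum. The trophoblast regulators Cdx2 and Eomes held 92 and 90 reads in Dgcr8KO, 77 and 76 in 2i and 221 and 180 in serum. Gata4 and Gata6, which drive primitive endoderm, held 81 and 67 in Dgcr8KO, 85 and 80 in 2i and 244 and 157 in serum. T, the Brachyury factor of the primitive streak, held 77 in Dgcr8KO, 90 in 2i and 245 in serum, and its streak partner Mixl1 held 66, 65 and 203. The order of Dgcr8KO and 2i thus varied between genes, while serum was the highest at every gene of this paragraph. The rule chose windows that are high in serum, so that order is a description.

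Over all members, H3K27me3 reads relative to the window total were lower in both cultures than in serum. The median window held 70 reads in Dgcr8KO, 61 in 2i and 131 in serum, and members took 21.4% of H3K27me3 window reads in Dgcr8KO, 21% in 2i and 30.0% in serum. The median log2 ratio to serum was -0.51 in Dgcr8KO and -0.55 in 2i, against 0.21 over all windows in either pair. Relative to all windows, members were at -0.72 in Dgcr8KO and -0.76 in 2i, and these relative values do not depend on the scaling of a library. The windows with H3K27me3 alone had medians of -0.54 in Dgcr8KO and -0.61 in 2i, close to the members. Windows with H3K4me3 alone went the other way, with medians of 0.295 in Dgcr8KO and 0.369 in 2i. Over their own input, windows past neither threshold had median H3K27me3 of 1.22 in Dgcr8KO, 1.28 in 2i and 0.88 in serum. The part of such background reads in the fall at members was not tested. Values relative to all windows do not take it out. At least 2-fold less H3K27me3 than in serum was read at 212 members in Dgcr8KO (13.1%, against 4.37% of all windows) and 283 in 2i (17.5%, against 6.28%). No member was 2-fold higher than in serum in either culture, while 13.7% of all windows were in Dgcr8KO and 15.6% in 2i. The counts of 2-fold members rose with every other scaling, to between 401 and 816 in Dgcr8KO and between 497 and 1066 in 2i. The Dgcr8KO and 2i ratios share the serum library, which also chose the members.

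A choice that leaves serum out gave smaller shifts of the same sign. The 1589 windows that passed thresholds of the same rank in Dgcr8KO, 1196 of them members, had a median log2 ratio of -0.44 in 2i over serum. The 1484 windows that passed in 2i, 1100 of them members, had a median of -0.37 in Dgcr8KO over serum. All windows stood at 0.21 in both pairs.

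**Figure D2:**
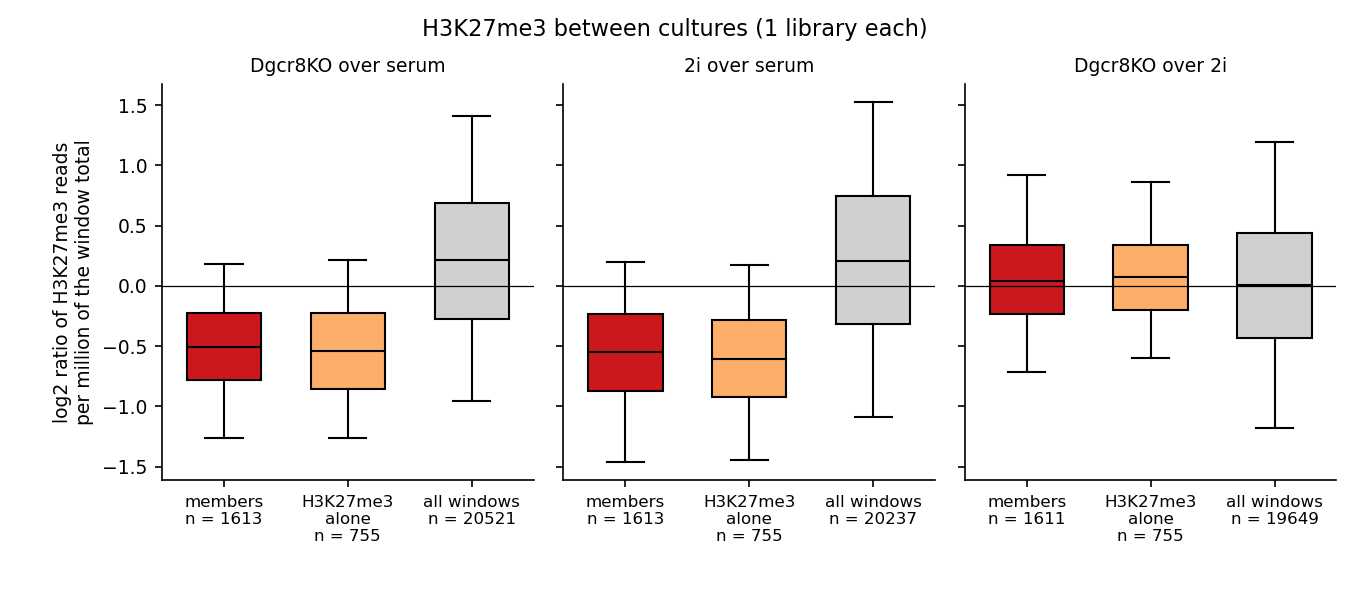
Log2 ratios of H3K27me3 CPM between cultures, for members, for windows with H3K27me3 alone and for all windows with at least 20 reads in the pair. Boxes give quartiles, lines the median and whiskers the 5th and 95th percentiles; members sit at -0.51 and -0.55 against serum and at 0.04 between Dgcr8KO and 2i.

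Dgcr8KO and 2i, neither of which the rule used, differed little from each other in the level of H3K27me3 over members. The median log2 ratio of Dgcr8KO over 2i was 0.04 over the 1611 members with at least 20 reads, and 0.00 over all windows. Dgcr8KO was at least 2-fold higher at 66 members (4.10%, against 7.91% of all windows) and 2-fold lower at 29 (1.80%, against 7.55%). Both shares lay under those of all windows, most of which hold fewer reads. The 95% counting interval of the ratio held 0 at 1230 members, lay above 0 at 237 and below it at 146. Across members, Spearman's rho of H3K27me3 reads was 0.63 between Dgcr8KO and 2i, 0.67 between Dgcr8KO and serum and 0.60 between 2i and serum. The median member held 70 reads in Dgcr8KO, 61 in 2i and 131 in serum, and the rule cut the serum values at 80. With such unequal reads, the 3 values of rho do not show which cultures are most alike. These values are a description over 1613 windows that share their sequence and input.

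Most windows stayed above a low level of both marks. Taking as marked a window with at least 3 times the reads of the first-quartile window of the library, 1517 members held both marks in Dgcr8KO (94.0%) and 1491 in 2i (92.4%). Both marks reached it in both cultures at 1431 members, and in neither culture at 36. H3K4me3 reached it at 1609 members in Dgcr8KO and 1599 in 2i, so the marks that fell under this level were mainly H3K27me3. For H3K27me3 the level is 36 reads in Dgcr8KO and 30 in 2i, beside a median input of 25 and 30 reads at the members. The same level was reached for both marks in Dgcr8KO and 2i at 59.5% and 50.3% of windows past the H3K27me3 threshold alone, and at 7.81% and 9.82% of windows past the H3K4me3 threshold alone. In serum it was reached at 86% of the windows that the H3K27me3 threshold alone chose, so the level is lower than the thresholds of membership. Against the input of the same window, a comparison added after seeing the data, H3K27me3 was at least 2-fold higher at 1029 members in Dgcr8KO (63.8%), 986 in 2i (61.1%) and 1408 in serum (87.3%). The shares were 3.43%, 3.5% and 2.79% of windows past the H3K4me3 threshold alone, in the same order.

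Among the windows with the lowest ratios of H3K27me3 to serum were those of regulators of development. Zic5, a zinc finger factor of neural crest and neural plate, held 7 H3K27me3 reads in Dgcr8KO, 17 in 2i and 118 in serum. Its neighbour in the genome, Zic2, held 17 in Dgcr8KO, 19 in 2i and 135 in serum, with 660, 1012 and 306 H3K27ac reads. Sfrp1, a secreted antagonist of Wnt, held 18 H3K27me3 reads in Dgcr8KO, 24 in 2i and 126 in serum, beside 617, 915 and 212 reads of H3K27ac. At each of these 3 genes H3K27me3 was low in Dgcr8KO and 2i alike and several times higher in serum. Dleu2, the host transcript of miR-15a and miR-16, held 25 H3K27me3 reads in Dgcr8KO, 7 in 2i and 106 in serum. Its H3K27ac went the other way, with 912 reads in Dgcr8KO, 1225 in 2i and 135 in serum. Plagl1, an imprinted zinc finger factor, held 21 H3K27me3 reads in Dgcr8KO, 27 in 2i and 140 in serum. It had 34 reads of H3K4me3 in Dgcr8KO, 927 in 2i and 484 in serum, so in Dgcr8KO both marks were low.

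Set against the median window, H3K4me3 of the members was lower in 2i than in serum and about level in Dgcr8KO. Median reads were 197 in Dgcr8KO, 246 in 2i and 503 in serum, in libraries of very different depth. Relative to the median window, the log2 ratio to serum was -0.03 in Dgcr8KO and -0.39 in 2i. In 2i, 297 members were 2-fold lower than in serum (7.28% of all windows were) and 22 higher (10.7% of all windows). In Dgcr8KO, 37 members were 2-fold higher than in serum (26.3% of all windows) and 18 lower (0.671%). Dgcr8KO stood 0.23 above 2i relative to the median window, with 350 members 2-fold higher (24% of all windows) and 17 lower (1.37%). The unadjusted medians, 0.12 for Dgcr8KO over serum and 0.47 for Dgcr8KO over 2i, turn negative with raw reads and with scaling to windows of low reads, so only the values relative to the median window are read here. The counts turn as well: with scaling to windows of low reads, 57 members were higher and 235 lower in Dgcr8KO than in 2i, and 8 higher and 310 lower in Dgcr8KO than in serum. With scaling to the median ratio the counts were 197 and 28 over 2i and 22 and 34 over serum. The counts of 2i against serum kept their balance under both. The serum H3K4me3 library chose the members, so values against serum are a description. Windows chosen in the third culture, as above, stood at -0.04 in Dgcr8KO over serum and -0.40 in 2i over serum relative to all windows.

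H3K27ac and RNA polymerase II, which the rule did not use, moved little over the members as a whole. Relative to the median window, H3K27ac stood at 0.02 in Dgcr8KO over serum, 0.06 in 2i over serum and -0.06 in Dgcr8KO over 2i. RNA polymerase II stood at 0.15, 0.14 and 0.01 in the same pairs. Against serum, 47 members were 2-fold higher in H3K27ac in Dgcr8KO (1.79% of all windows) and 118 in 2i (3.30%), while 139 and 173 were lower (12.6% and 13.7%). This balance turns with scaling: 97 members were higher and 71 lower in Dgcr8KO, and 157 and 117 in 2i, when scaled to the median ratio, and 187 and 27, and 266 and 66, when scaled to windows of low reads. RNA polymerase II was 2-fold higher than in serum at 238 of 1509 members in Dgcr8KO (10.2% of all windows) and at 263 of 1337 in 2i (12.3%), and lower at 84 (4.02%) and 145 (6.67%). Scaled to windows of low reads, 157 were higher and 168 lower in Dgcr8KO and 150 and 217 in 2i, so this balance turns too. H3K9me3 of the median member stood at 56.9 CPM in Dgcr8KO, 63.5 in 2i and 58.8 in serum, close to the 52, 53.3 and 50.3 of the input. H3K36me3, a mark of transcribed gene bodies, had 42, 38.5 and 35.8 CPM in the same order, below the input.

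Single windows did show H3K27ac and H3K27me3 opposite to each other, also between Dgcr8KO and 2i, where neither mark chose the members. Of the 66 members with 2-fold more H3K27me3 in Dgcr8KO than in 2i, 32 (48.5%) had 2-fold less H3K27ac (7.52% of all windows) and 0 had 2-fold more (5.97%), with a median log2 ratio of -0.96. RNA polymerase II was 2-fold lower at 21 of the 65 of them with at least 20 reads (8.81% of all windows) and higher at 0 (8.55%). Of the 29 members with 2-fold less H3K27me3 in Dgcr8KO, 5 had 2-fold more H3K27ac and 2 had less, with a median of 0.48, and polymerase was higher at 14 of 27 and lower at 0. Among the 1516 members within 2-fold in H3K27me3, H3K27ac was 2-fold higher at 80 (5.28%) and lower at 107 (7.06%). The Dgcr8KO and 2i counts against serum share the serum libraries. Of members 2-fold lower in H3K27me3, H3K27ac was 2-fold higher at 28 of 212 in Dgcr8KO and 73 of 283 in 2i, against 19 of 1401 and 45 of 1330 of the rest. The serum library of H3K27me3 that defines these groups also chose the members.

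Kit, the receptor of stem cell factor, stood farthest apart on the side of more H3K27me3 in Dgcr8KO. It held 105 H3K27me3 reads in Dgcr8KO, 20 in 2i and 120 in serum, a log2 ratio of Dgcr8KO over 2i of 2.20 (95% counting interval 1.53 to 3.00). Its H3K27ac was 125 reads in Dgcr8KO, 964 in 2i and 142 in serum, and its H3K4me3 320, 1979 and 1086 reads. The knockout and serum windows of Kit were thus alike and the 2i window had lost H3K27me3 and gained acetylation. Gsc, whose promoter is printed above, held 100 H3K27me3 reads in Dgcr8KO, 21 in 2i and 233 in serum, and 201, 521 and 150 of H3K27ac. Hhat, which palmitoylates hedgehog ligands, held 64 H3K27me3 reads in Dgcr8KO, 16 in 2i and 116 in serum. Sox1 held 84, 26 and 199 in the same cultures, and its H3K27ac was 195 in Dgcr8KO, 407 in 2i and 111 in serum. On the other side, Tmem63a held 30 H3K27me3 reads in Dgcr8KO, 109 in 2i and 100 in serum, a log2 ratio of Dgcr8KO over 2i of -2.01 (95% counting interval -2.66 to -1.43). Its H3K27ac was 334 reads in Dgcr8KO, 78 in 2i and 280 in serum. Sypl2, a synaptophysin-like membrane protein, held 28 H3K27me3 reads in Dgcr8KO, 71 in 2i and 176 in serum, with 574, 159 and 162 of H3K27ac. Hopx, Pou4f2 and Bcl11a, named after their values were seen, complete the 5 windows with less H3K27me3 and more H3K27ac in Dgcr8KO. Lefty1, an inhibitor of Nodal, was within 2-fold in H3K27me3 between Dgcr8KO and 2i and differed in the active marks, with 225 H3K27ac reads in Dgcr8KO, 46 in 2i and 183 in serum and 38, 31 and 109 of H3K27me3.

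Single cells of the same culture conditions were set beside these windows, and whether they came from the same cultures is not stated. Of the 32 members with more H3K27me3 and less H3K27ac in Dgcr8KO than in 2i, 29 were in the cell table, and the share of cells at 10 TPM or more was lower in Dgcr8KO at 17 of them, higher at 7 and equal at 5. All 5 members of the opposite kind had a higher share in Dgcr8KO. Over the 1455 members in the table, the share was lower in Dgcr8KO at 185, higher at 528 and equal at 742. Kit reached 10 TPM in 21.4% of Dgcr8KO cells, 97.9% of 2i cells (exact binomial 95% interval 92.5 to 99.7%) and 0 of 183 serum cells, which allows a share of up to 1.64%. Tmem63a reached it in 31% of Dgcr8KO cells (21.3 to 42%) and in 0 of the 94 2i and 183 serum cells.

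**Figure D3:**
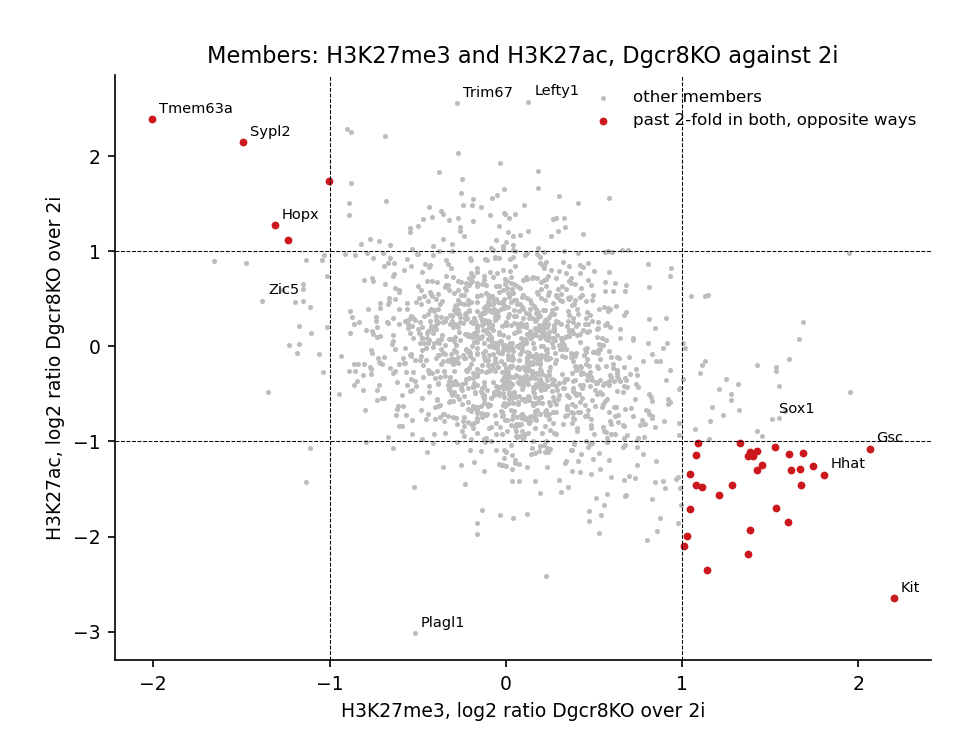
Log2 ratio of H3K27me3 (horizontal) and H3K27ac (vertical) in Dgcr8KO over 2i, 1 library each, with 1 point per member and dashed lines at 2-fold. Red points are the 37 members past 2-fold in both marks in opposite directions, 32 at the lower right with Kit and Gsc and 5 at the upper left with Tmem63a and Sypl2.

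In bulk RNA few members were expressed. Of the 1354 members in the bulk table, 260 and 255 reached 1 TPM in the Dgcr8KO libraries, 142 in the 2i library and 127 and 110 in the serum libraries. These are 19.2% and 18.8%, 10.5%, and 9.38% and 8.12% of the members, against 52.7% and 51.5%, 42.8%, and 39.8% and 36% of all names. In bulk, fewer cells that express a gene and less RNA per cell cannot be told apart.

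With a mean of at least 1 TPM, 193 members entered a limma fit on log2(TPM + 1) over all 10081 genes that passed, with Benjamini-Hochberg adjustment. In Dgcr8KO, 125 members were higher than in serum and 24 lower at an adjusted p under 0.05, beside 62.5% and 11.7% of all genes. In 2i, 40 were higher and 24 lower, beside 20.4% and 11.8%. The shares of members, 64.8% and 12.4% in Dgcr8KO and 20.7% and 12.4% in 2i, were close to those of all genes. The median gene of the fit was 0.92 higher in Dgcr8KO and 0.20 higher in 2i than in serum on the log2 scale, so changes are also given relative to it. Centred on the median gene, 53 members rose and 61 fell in Dgcr8KO (21.8% and 36.5% of all genes) and 23 rose and 46 fell in 2i (13.8% and 18.7%). The members' median change stood 0.24 above that of all genes in Dgcr8KO and 0.19 below it in 2i. The 193 members passed the filter in part through the culture where they are high, so their counts are not those of all members. The fit takes the spread of the single 2i library from the other cultures.

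Lefty1 had the largest rise in Dgcr8KO, with 120.9 and 179.6 TPM in Dgcr8KO, 2.38 TPM in 2i and 0.420 and 0.443 TPM in serum. The log2 change in Dgcr8KO over serum was 6.70 (SE 0.25, limma adjusted p = 1.57e-09) and 5.78 above the median gene. Sfrp1 had 36.2 and 34.7 TPM in Dgcr8KO, 9.68 TPM in 2i and 1.37 and 1.20 TPM in serum, with log2 changes of 4.0 in Dgcr8KO (SE 0.23) and 2.23 in 2i (SE 0.29) over serum. At both genes the Dgcr8KO libraries were the highest, and no library of either culture overlapped serum. Vim, an intermediate filament protein, had 18.2 and 19.7 TPM in Dgcr8KO, 5.60 TPM in 2i and 1.09 and 0.673 TPM in serum, a log2 change of 3.41 in Dgcr8KO (SE 0.26). Acss1, Vax2os1, Ndrg2, Tesc and Plekha2 rose by 3.11 to 4.06 in Dgcr8KO. Tmem63a had 11.7 and 11.2 TPM in Dgcr8KO, 0.423 TPM in 2i and 1.70 and 0.691 TPM in serum, a log2 change of 2.54 in Dgcr8KO (SE 0.29, limma adjusted p = 8.03e-06).

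Kit led the rises in 2i together with Ckb, the brain creatine kinase. Kit had 26.6 TPM in 2i and 3.07 and 1.97 TPM in serum, a log2 change of 2.99 (SE 0.32, limma adjusted p = 2.42e-05). In Dgcr8KO it had 8.14 and 6.53 TPM, a log2 change over serum of 1.25 that was 0.34 above the median gene and lost its call in 2 of 9 other settings. Ckb had 479.0 and 606.6 TPM in Dgcr8KO, 767.4 TPM in 2i and 74.2 and 81.6 TPM in serum, with log2 changes of 2.78 in Dgcr8KO and 3.29 in 2i. Esrrb, an orphan receptor of the naive pluripotency network, had 13.8 and 13 TPM in Dgcr8KO, 18.8 TPM in 2i and 2.94 and 2.69 TPM in serum, with log2 changes of 1.92 (SE 0.23) and 2.38 (SE 0.29). Its window held 96 H3K27me3 reads in Dgcr8KO, 92 in 2i and 227 in serum, so the only member among the 8 pluripotency markers was expressed while its window kept the mark. Plagl1 had 0.180 and 0.192 TPM in Dgcr8KO, 4.86 TPM in 2i and 0.0607 and 0 TPM in serum, a log2 change of 2.51 in 2i (SE 0.26). Zic2, H2-Bl and Cd302 rose by 2.12 to 2.87 in 2i.

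Members lower than in serum included Id3 and keratin genes. Id3, an inhibitor of bHLH factors and a target of BMP, had 6.80 and 7.60 TPM in Dgcr8KO, 3.22 TPM in 2i and 94.2 and 135.2 TPM in serum. Its log2 change was -3.80 in Dgcr8KO (SE 0.23, limma adjusted p = 5.27e-08) and -4.75 in 2i (SE 0.28, adjusted p = 1.65e-07). The keratin gene Krt18 had 94.3 and 100.8 TPM in Dgcr8KO, 0.296 TPM in 2i and 99 and 98.1 TPM in serum. It fell by 6.26 in 2i (SE 0.22) and had a log2 value of -0.02 in Dgcr8KO (limma adjusted p = 0.945) that did not pass. Krt7 had 9.94 and 7.51 TPM in Dgcr8KO, 0.515 TPM in 2i and 107.9 and 132.6 TPM in serum, and fell by 3.64 in Dgcr8KO and fell by 6.31 in 2i. Its plate means in single cells had another order, with 3.88 TPM in Dgcr8KO, 1.90 TPM in 2i and 0.772 and 10.2 TPM on the serum plates. Tpm1, a tropomyosin, had 27.8 and 41.3 TPM in Dgcr8KO, 4.74 TPM in 2i and 168.9 and 141.3 TPM in serum. Car4 fell by 2.33 in Dgcr8KO and fell by 3.28 in 2i. Ptrf, Phlda2 and Gsn fell by 2.96 to 3.46 in 2i. The class I genes H2-Q6 and H2-Q7 carry the same RNA values, so the table does not tell them apart, and both fell by 2.01 in Dgcr8KO. The H3K27me3 window of Id3 held 34 reads in Dgcr8KO, 43 in 2i and 126 in serum, and that of Tpm1 73, 42 and 153. In CPM the mark was below serum at 1430 of the 1613 members in Dgcr8KO and at 1432 in 2i. Members were chosen for high serum H3K27me3, so its fall at Id3 and Tpm1 cannot be tied to their RNA. Tpm1 reached 10 TPM in 94.05% of Dgcr8KO cells, 78.72% of 2i cells and 84.44% and 70.97% of serum cells. Its share in Dgcr8KO thus lay above both serum plates, unlike its bulk RNA.

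Bulk calls had the same direction on the plates of single cells for most members. Of the 125 higher in Dgcr8KO, 123 had a plate mean above both serum plates, and of the 40 higher in 2i, 38. Of the 24 lower in Dgcr8KO, 16 lay below both serum plates and 3 above, and of the 24 lower in 2i, 17 lay below and 4 above. Most genes were higher on these plates: of the 10066 genes tested in bulk and present in the cell table, 84.3% lay above both serum plates in Dgcr8KO and 84.6% in 2i, and 10.4% and 9.97% below. Centred on the median gene of each plate, 93 of the 125 higher in Dgcr8KO lay above both serum plates (74.4%, against 40.8% of all) and 34 of the 40 higher in 2i (85%, against 38.4%). Of the members lower in bulk, 22 of 24 in Dgcr8KO and 22 of 24 in 2i then lay below (49.5% of all in either culture). A limma fit over the 4 plate means, whose spread rests on the 2 serum plates alone, called 189 of 313 members higher and 17 lower in Dgcr8KO (50% and 2.97% of all genes), and 146 higher and 15 lower in 2i (39% and 1.82%). The median gene of that fit was 1.38 higher in Dgcr8KO and 1.24 higher in 2i, and centred on it the members' calls were 77 higher and 84 lower in Dgcr8KO and 50 and 109 in 2i.

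Genes of the machinery that lays down these marks were mostly higher in Dgcr8KO, as were most genes. Of 9 PRC2 genes tested, 7 rose and 1 fell in Dgcr8KO, and 2 rose and 2 fell in 2i. Relative to the median gene, the counts were 2 and 2 in Dgcr8KO and 1 and 4 in 2i. Ezh1, a catalytic subunit, had 39.2 and 40 TPM in Dgcr8KO, 1.48 TPM in 2i and 4.83 and 2.50 TPM in serum, a log2 change in Dgcr8KO of 3.17 (SE 0.27, limma adjusted p = 9.6e-07). Eed, which binds H3K27me3 within PRC2, had 72.2 and 76.2 TPM in Dgcr8KO, 108.7 TPM in 2i and 185.4 and 165.6 TPM in serum, and fell by 1.23 in Dgcr8KO (SE 0.15) and by 0.68 in 2i (SE 0.19). Ezh2, the main catalytic subunit in mESCs, had 26.3 and 22 TPM in Dgcr8KO, 13.7 TPM in 2i and 8.19 and 7.43 TPM in serum. Its log2 change was 1.51 in Dgcr8KO (SE 0.22) and 0.74 in 2i (SE 0.27, limma adjusted p = 0.0544), the second not a call. Of 11 PRC1 genes, 5 rose and 0 fell in Dgcr8KO, and 1 rose and 3 fell in 2i, among them Phc1 with 67.1 and 71.2 TPM in Dgcr8KO, 18.2 TPM in 2i and 50 and 44.5 TPM in serum. Of 11 genes of H3K4 methylation, 10 rose and 1 fell in Dgcr8KO, and 5 rose and 1 fell in 2i; the names Mll2 and Wbp7 carry the same values, and counted once they leave 10 profiles, with 9 up and 1 down in Dgcr8KO and 4 up and 1 down in 2i. All 3 H3K27 demethylases rose in Dgcr8KO and 1, Kdm6b, in 2i. Centred on the median gene, the calls were 1 up and 4 down for PRC1, 1 up and 2 down for H3K4 methylation and 0 for the demethylases in Dgcr8KO.

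In single serum cells most members were silent, which here means that no serum cell reached 10 TPM. Of the 1455 members in the mESC cell table, 1200 (82.5%) reached 10 TPM in 0 of the 183 serum cells, against 49.7% of all names in the table. A member was called sporadic when at least 2 cells and at most 25% of the cells reached 10 TPM on each serum plate. By this rule 56 members (3.85%) were sporadic, against 13.1% of all names, and 32 (2.20%, against 18%) passed 25% on both plates. The shares for windows with H3K27me3 alone were 88.1% silent, 4.36% sporadic and 1.17% broad, and for H3K4me3 alone 22.8%, 20% and 30.9%. Plate 1 showed 230 members in at least 1 cell and plate 2 168, of which 143 were common, 62.2% of those on plate 1 and 85.1% of those on plate 2. At 1 TPM each plate showed 350 members in at least 1 cell, so part of the silent members held RNA under 10 TPM. The serum windows of silent, sporadic and broad members held medians of 18, 34 and 48 reads of RNA polymerase II and 83, 111.5 and 158 of H3K27ac, in the order of the classes.

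Krt18, Crabp1 and Pax3 were the sporadic members with the highest mean share over both serum plates. Krt18 reached 10 TPM in 0 of 54 NPCs (which allows a share of up to 5.56%), 89.3% of Dgcr8KO cells, 10.6% of 2i cells and 21.1% and 15.1% of cells on the serum plates (exact binomial 95% intervals 13.2 to 31% and 8.48 to 24%). Crabp1, which binds retinoic acid, reached it in 57.4% of NPCs, 56% of Dgcr8KO cells, 64.9% of 2i cells and 18.9% and 16.1% of serum cells. Pax3, a factor of dorsal neural tube and muscle, reached it in 0 of 54 NPCs, 7.14% of Dgcr8KO cells, 12.8% of 2i cells and 22.2% and 11.8% of serum cells. The 3 genes thus took different courses outside serum. Mfsd1, a transporter, reached 93.6% of 2i cells and 17.8% and 12.9% of serum cells. Nebl was in 0 of 84 Dgcr8KO cells, and Mical2 in 0 of 84 Dgcr8KO and 0 of 94 2i cells, shares of up to 3.57% and 3.19% being allowed by these numbers. Mical2 also differed between the serum plates, with 5.56% and 24.7%. Of the 56, 9 are protocadherin names that carry identical values, so the 56 names hold 48 profiles.

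Sporadic members as a group reached more cells elsewhere. The median share was 35.2% in NPCs (over the 53 in that table), 22.6% in Dgcr8KO, 22.3% in 2i and 10.0% and 6.45% on the serum plates. The share lay above both serum plates for 37 in NPCs, 41 in Dgcr8KO and 35 in 2i, and below both for 12, 11 and 17. With identical values counted once, the medians were 18.5% in NPCs (over 45), 18.5% in Dgcr8KO, 13.3% in 2i and 7.78% and 5.38% in serum, the share lay above both plates for 29, 33 and 27, and the counts below were the same. In NPCs 29 of the 53 passed 25% of cells (21 of the 45 profiles), and 30 did without the 4 cells that carry pluripotency markers. These members were chosen by their serum shares, so this is a description. The same counts over all 2926 sporadic names were not taken. By plate mean, 84.3% of all genes tested in bulk lay above both serum plates in Dgcr8KO and 84.6% in 2i. A rise particular to these members is therefore not shown. Genes at 10 TPM or more per cell also differed, with medians of 4322.5 in NPCs, 5998.5 in Dgcr8KO, 6071 in 2i and 3634.5 and 3348 on the serum plates. The part of this difference in the shares was not tested.

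Most silent members were silent in the other mESC cultures too, as were most silent genes. Of the 1200, 779 (64.9%) were in 0 cells in Dgcr8KO and 953 (79.4%) in 2i, against 65.8% and 73.9% of all 11135 names in 0 serum cells. In Dgcr8KO 13 members (1.08%) and in 2i 8 (0.667%) passed 25% of cells, against 2.53% and 1.36% of those names. Among 948 of them in the NPC table, 308 (32.5%) were in 0 NPCs and 107 (11.3%) passed 25%, against 38.4% and 8.56% of the 7446 such names in that table. Without the 4 NPCs that carry pluripotency markers, these counts were 320 and 111. Most lineage regulators in the table were silent, as were 82.5% of all members. In 0 serum cells were 50 of 53 neural, 25 of 29 mesoderm and 7 of 7 endoderm members in the table. So were 39 of 46 ligand and 28 of 29 receptor members. Of the trophoblast members only 3 of 6 were silent, and 2 were sporadic. Gata4 was in 1.85% of NPCs, 1.19% of Dgcr8KO, 1.06% of 2i and 0 of 183 serum cells. Eomes was in 0 of 54 NPCs, 4.76% of Dgcr8KO, 1.06% of 2i and 0 of 183 serum cells. Fgf5, a marker of the primed epiblast, was in 0 of the NPC, Dgcr8KO and 2i cells and in 1.11% and 2.15% of serum cells.

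A cell expressed a median of 150 members at 10 TPM in NPCs (range 49 to 222), 92.5 in Dgcr8KO (51 to 128), 71 in 2i (54 to 90), and 37 (27 to 69) and 34 (23 to 50) on the serum plates. The Dgcr8KO and serum ranges overlapped little, and every 2i cell held at least 54. As a share of the genes at that level in the cell, the medians were 3.46% in NPCs, 1.55% in Dgcr8KO, 1.17% in 2i and 0.959% and 1.0% in serum. The Dgcr8KO and 2i medians lay closer to serum on this scale than in number of members. Over the same 1196 members in both tables, 194 passed 25% of cells in NPCs, 100 in Dgcr8KO, 78 in 2i and 40 and 37 on the serum plates, and 345, 601, 776, 973 and 1031 were in 0 cells. The 3 NPCs with the fewest members, 49, 65 and 68, were among the 4 with pluripotency markers. Without those 4 the range was 95 to 222, the median stayed at 150 and was 3.51% of genes, and 200 of the 1196 passed 25% and 366 were in 0 NPCs. The NPC and mESC tables were deposited separately, so levels set across them have no test. Members absent from the NPC table, which may lack names without RNA in NPCs, are outside the NPC counts.

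**Figure D4:**
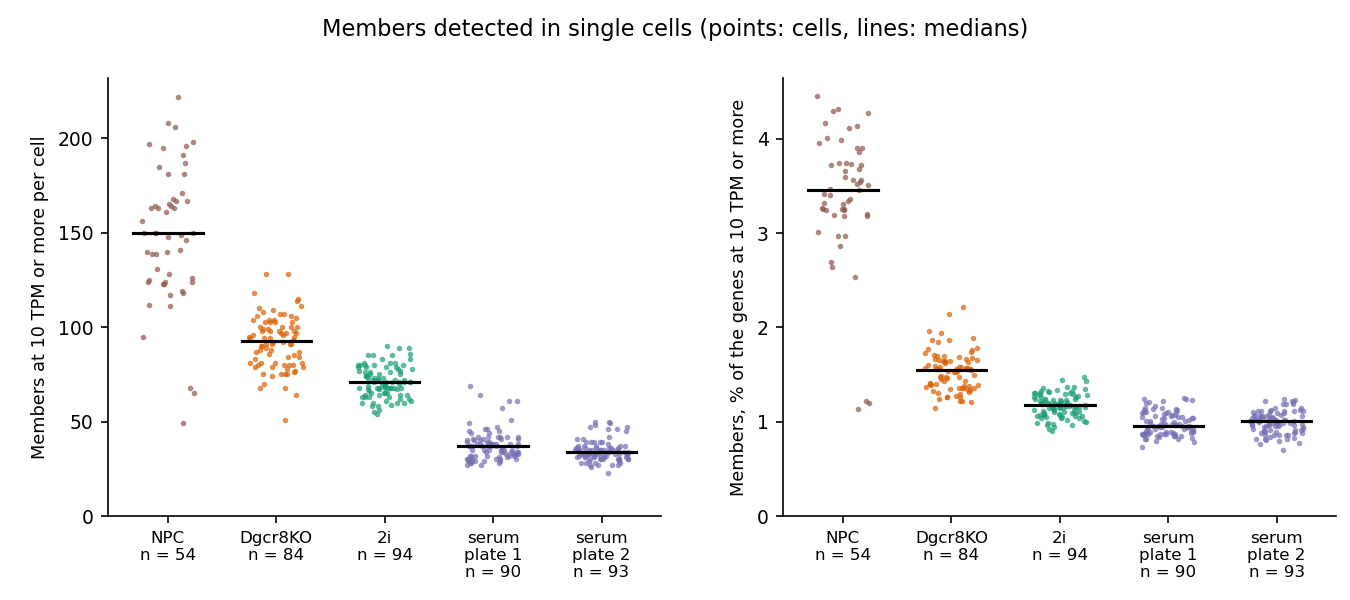
Members at 10 TPM or more in each cell (left, a count) and as a percentage of all genes at that level in the cell (right), for NPC, Dgcr8KO, 2i and both serum plates. Points are cells and black lines medians, which run 150, 92.5, 71, 37 and 34 on the left.

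Members switched on in NPCs were defined by at least 20% of NPCs and at most 5% of cells on every mESC plate. The rule held for 126 of the 1196 members in both tables (10.5%), against 2.45% of the 18453 names in both. Members absent from the NPC table are not counted, so this is not a share of all members. It held for 20 of 363 windows with H3K27me3 alone (5.51%) and 157 of 9952 with H3K4me3 alone (1.58%). The limit of 5% favours classes that are silent in mESCs, and 82.5% of members were in 0 serum cells, against 49.7% of all names. Among names in 0 serum cells, 11.3% of members and 8.6% of all passed 25% of NPCs, a smaller difference. Without the 4 NPCs that carry pluripotency markers it held for 133 members, all 126 among them. The 8 members with the highest share of NPCs follow. Col4a2, a basement membrane collagen, was in 98.2% of NPCs (exact binomial 95% interval 90.1 to 100%), 2.38% of Dgcr8KO cells and 0 of the 2i and serum cells. Igf2 was in 96.3% of NPCs, 0 of the Dgcr8KO and 2i cells and 4.44% and 2.15% of serum cells. Igfbp3 and Igfbp7, which bind growth factors of the IGF family, were in 90.7% and 79.6% of NPCs. Fbn2, a fibrillin, was in 87% and the cadherin gene Cdh2, typical of neural epithelium, in 85.2% of NPCs, both in 0 of the mESCs. Maf, a bZIP factor, was in 90.7% and Efnb2, an ephrin, in 88.9%. Without the 4 cells these 8 genes were in 82% to 100% of NPCs. The 10 fibroblast markers, given above, each reached the level in at least 1 NPC, and their part in this set was not tested.

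Of the 37 neural regulator members in both tables, 1 was switched on (2.70%, against 10.5% of all members and 2.45% of all names), Sox9 at 68.5% of NPCs, named after its value was seen. Sox1 was in 16.7% of NPCs, Hes5 in 11.1% and Neurog2 in 1.85%. Olig2, which marks motor neuron and oligodendrocyte progenitors, was in 1.85% of NPCs, 11.9% of Dgcr8KO cells, 1.06% of 2i cells and 0 of 183 serum cells. Nes was in 46.3% of NPCs (32.6 to 60.4%), 1.19% of Dgcr8KO cells, 1.06% of 2i cells and 0 of 183 serum cells. Of mesoderm regulators 5 of 23 were switched on (21.7%), of ligands 4 of 30 (13.3%), of guidance and adhesion proteins 7 of 36 (19.4%), and of channels 1 of 43 (2.33%). The differences between these lists were not tested. Several members that rose in mESCs were broad in NPCs as well. Vim was in 100% of NPCs, 90.5% of Dgcr8KO, 90.4% of 2i and 17.8% and 25.8% of serum cells, and Sfrp1 in 83.3%, 98.8%, 75.5% and 3.33% and 0%. Plagl1 was in 42.6% of NPCs, 0 of 84 Dgcr8KO cells, 96.8% of 2i cells and 1.11% and 1.08% of serum cells. Id3 was in 94.4% of NPCs, 28.6% of Dgcr8KO, 21.3% of 2i and 95.6% and 93.5% of serum cells, so Dgcr8KO and 2i alone were low.

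**Figure D5:**
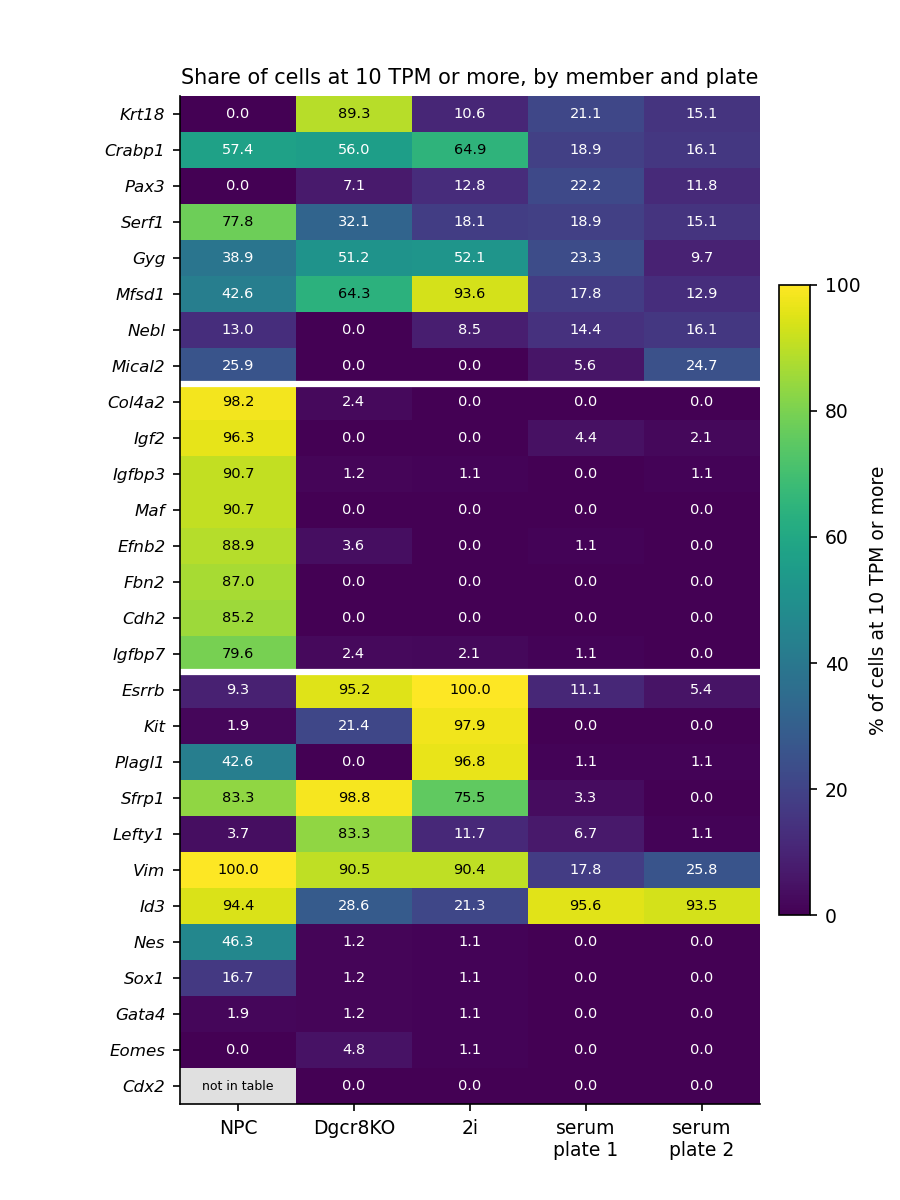
Percentage of cells at 10 TPM or more for members on each plate, with the value in each tile. The upper block holds the sporadic members with the highest serum shares, the middle block members switched on in NPCs, and the lower block members named elsewhere in the text, such as Kit at 21.4% in Dgcr8KO, 97.9% in 2i and 0% in serum.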

How the data were processed

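ChIP-seq libraries of 6 marks and factors plus input came from Dgcr8KO, 2i and serum mESCs, 1 library each, and RNA from bulk cultures and single cells. The authors' deposited ChIP table holds counts of reads per gene window, not normalised. RNA values were deposited as the natural log of TPM + 1, judging by their sums, and were turned back to TPM, so RNA depth is unknown. Per the submitters' processing notes, Bowtie, RSEM and the build mm9 were used, with versions and roles not given in the sources used here. Single cells were captured on C1 chips, and libraries were made with SMARTer and Nextera XT, per the labels.

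ChIP ratios were taken of CPM, reads scaled to the window total of a library, with 0.5 reads added, over windows with at least 20 reads in the pair, and a change was called at 2-fold. Intervals on ratios and shares are exact at 95% and cover counting error only. For 0 cells the upper limit given is 3 cells of the total, not the exact interval. Bulk libraries and plate means were fitted on log2(TPM + 1) with limma 3.58.1 in R 4.3.3 over all genes with a mean of at least 1 TPM, with Benjamini-Hochberg adjustment and a threshold of 0.05. The fit was tested on simulated data. Nothing states that the 2 libraries of a group came from separate cultures, so a p-value here sees no more than the difference between libraries, which could be technical. Shares of cells count cells at 10 TPM or more. Other steps used Python 3.11.15 with pandas 2.3.3, numpy 2.4.6 and scipy 1.17.1. Names that a spreadsheet turned into dates were left out of the cell tables.

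The members and lists were chosen with earlier results of these data known. Named are the up to 4 members per role with the most serum H3K27me3, the 5 highest and 5 lowest H3K27me3 ratios of each pair, the 3 highest and lowest of H3K27ac and RNA polymerase II, up to 8 bulk calls in each direction, the 8 leading sporadic and NPC members, those nearest the thresholds, a set of lineage regulators, and members among the marker lists. The text gives the part of them that the results turn on. Alternatives covered scaling, thresholds, pseudocount, filter, replicates and a replicate block.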

Additional observations from a re-analysis of the deposited data

How the results depend on the processing

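Over all counts recomputed under other settings, 181 stayed within 1.5 times the value given and 119 did not. Each scaling multiplies a whole library by a constant, so medians relative to all windows cannot change with it and are no check. Members 2-fold lower in H3K27me3 than in serum numbered 816, 401 and 516 in Dgcr8KO with raw reads, scaling to the median ratio and scaling to windows of low reads, and 1066, 497 and 640 in 2i. With both read thresholds doubled they numbered 57 in Dgcr8KO and 73 in 2i, and with both halved 337 and 512, with 13 and 33 members then 2-fold higher. For windows chosen in the third culture, a setting added after seeing the data, 127 were lower and 26 higher in Dgcr8KO, and 29 higher in 2i. Between Dgcr8KO and 2i, 6 and 192 members were higher with doubled and halved thresholds, 4 and 92 were lower, and 14 were lower with raw reads. Over the other marks, 1086 members past 2-fold became 224 and 2239 with doubled and halved thresholds. Fewer or more members pass by construction there.

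Sporadic members numbered 183 at 1 TPM and from 79 to 120 with 1 serum plate left out, and members on in NPCs 24 when 50% of NPCs were required. In bulk, centring on the median gene gave 53 higher and 61 lower in Dgcr8KO and 23 and 46 in 2i. Quantile normalisation gave 65 and 56 in Dgcr8KO and 46 lower in 2i, and no filter 290 higher in Dgcr8KO. Doubled thresholds gave 20 and 9 in Dgcr8KO and 4 and 5 in 2i, and halved thresholds 426 and 65 and 140 and 94. With 1 library left out, calls ranged from 92 to 129 higher and 18 to 21 lower in Dgcr8KO, and from 24 to 29 higher and 16 to 22 lower in 2i. For 2i the 2 Dgcr8KO libraries and serum replicate 2 each brought the higher calls to 25 or fewer. With a replicate block, the calls were 128 higher and 24 lower in Dgcr8KO. The difference between the 2 serum libraries and that between the 2 Dgcr8KO libraries had a correlation of -0.0255 over 10081 genes. A shift shared by libraries of the same number was thus not seen, which cannot exclude that they were prepared together. On plates, centring gave 77 and 84 in Dgcr8KO and 50 and 109 in 2i, no filter 507 and 27 in Dgcr8KO and 340 higher in 2i, and means of log values 27 lower in 2i. The cause of these shifts was not tested. Leaving out chromosome 8, windows of high input or the 4 NPCs with pluripotency markers, all added after seeing the data, kept every count within 1.5 times.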

Other observations

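The keratin genes had different values in bulk cultures and in single cells of the same name. Krt18 had 94.3 and 100.8 TPM in bulk Dgcr8KO, 0.296 TPM in 2i and 99 and 98.1 TPM in serum. Its means over cells were 98.7 TPM on the Dgcr8KO plate, 3.22 TPM on the 2i plate and 10.6 and 55 TPM on the serum plates. The 2i cultures were thus low in both kinds of sample, while the serum plates differed from each other and from bulk serum. Gsn, which severs actin filaments, had 0.383 TPM in bulk 2i and 9.44 and 10.1 TPM in bulk serum, and reached 10 TPM in 3.19% of 2i cells and 0% and 2.15% of serum cells. Car4, a carbonic anhydrase, had the same order in both, with 0.755 and 1.1 TPM in bulk Dgcr8KO, 0 TPM in 2i and 12.1 and 6.16 TPM in serum, and with 0 of 84 Dgcr8KO cells, 0 of 94 2i cells and 12.2% and 9.68% of serum cells at 10 TPM.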
